A study of Mus musculus with 12 samples.

Results

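Wnt ligands, their Frizzled receptors and the secreted proteins that block them were described in newborn (P0) mice, in retinal ganglion cells (RGCs) and in the retinal cells left after RGCs had been taken out (non-RGCs). The members were chosen by gene symbol, with earlier results of these data known. All symbols beginning with Wnt, Fzd, Sfrp or Dkk and ending in the number of a family member were taken, which gave 37 of the 38720 genes listed in both deposited tables. They comprise 19 Wnt ligands, 10 Frizzled receptors and 8 secreted antagonists, of which 4 are secreted Frizzled-related proteins (Sfrp1, Sfrp2, Sfrp4 and Sfrp5) and 4 are Dickkopf proteins (Dkk1 to Dkk4).

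The mKO pups were Math5-Cre;Ezh2 flox/flox, in which Cre is knocked in under the promoter of Math5, a gene switched on in the progenitors that give rise to RGCs, and removes the exons encoding the SET domain of the histone methyltransferase Ezh2. Pups labelled wild type (WT) were the controls, and the study's methods state that littermate Ezh2 flox/flox mice served as controls unless stated otherwise. Its RNA-seq methods name WT pups, whereas its results speak of littermate controls. Which were sequenced was not settled here. Cre is active in only part of the RGCs of such mice, so that the RGC fraction of an mKO retina holds cells that kept Ezh2, as does the non-RGC fraction. RGCs were collected with magnetic beads against CD90 (Thy-1), and 3 poly-A RNA-seq libraries were made for each genotype and fraction, 12 in all. No label says that the libraries of a group came from separate animals, and p-values then measure only the spread between these libraries.

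Between 7139633 and 13014004 reads per library were counted on genes. The Ezh2 gene was read at 1354 to 1476 normalised reads in mKO RGCs and at 1189.9 to 1678 in WT RGCs. Normalised reads are reads divided by the library's size factor. They cover the whole gene, of which the deleted exons are only a part, and do not check the genotype. The 12 RGC markers summed to between 2619 and 2766 RPM (reads scaled to 1000000 counted on genes per library) in WT RGCs and to between 513 and 539 in WT non-RGCs. They summed to between 2059 and 2130 in mKO RGCs and to between 608 and 814 in mKO non-RGCs. Markers of blood (24.5 to 30.4 RPM in mKO RGCs, 9.51 to 11 in WT RGCs) and of the pigment epithelium (51.6 to 78.8 and 28.0 to 36.4) were higher in mKO, in non-RGCs as well (57.2 to 85.9 against 11.8 to 19.2 for blood, and 184 to 209 against 38.3 to 70.8 for the pigment epithelium). In bulk RNA, fewer cells of a type and less RNA per cell cannot be told apart.

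Wnt proteins are lipid-modified, secreted signals. They bind the extracellular domain of a Frizzled receptor together with the co-receptors Lrp5 and Lrp6, and through Dishevelled proteins they keep β-catenin from being degraded so that it can act with Tcf and Lef factors in the nucleus; other branches act on cell polarity and on calcium. Secreted Frizzled-related proteins bind Wnt ligands, and Dkk1, Dkk2 and Dkk4 bind the Lrp co-receptors, whereas Dkk3 is a divergent family member. In the eye the pathway is known for the patterning of the ciliary margin and pigment epithelium, for progenitor maintenance through Fzd5, for growth of retinal vessels through Fzd4, and for guidance of axons through Fzd3.

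Levels were first compared between genes as RPM divided by the length of the gene's exons in kilobases (RPKM). Over the 6 libraries of the RGC fraction, the order of the medians was Dkk3 (77.2 RPKM), Fzd5 (31.4), Fzd1 (14.2), Sfrp2 (13.4), Sfrp1 (8.88), Wnt3 (8.65), Fzd2 (6.51), Fzd7 (6.45), Fzd3 (5.26) and Wnt5b (2.98). The lowest Dkk3 library (67.8 RPKM) lay above the highest Fzd5 library (54.0), whereas the ranges of Fzd1 (12.9 to 17.9) and Sfrp2 (10.8 to 26.5) overlapped, as did those of Fzd2 (4.87 to 14.6), Fzd7 (4.62 to 7.68) and Fzd3 (3.93 to 6.54). In non-RGCs the order was Dkk3 (121), Fzd5 (63.2), Sfrp2 (29.3), Fzd2 (19.6), Fzd7 (15.9), Sfrp1 (12.4), Fzd1 (9.24) and Wnt5b (9.01). Dkk3 (91.5 to 153 RPKM) again lay above Fzd5 (53.8 to 83.3) in every library, and the ranges of Sfrp2 (25.3 to 48.7) and Fzd2 (16.3 to 34.0) overlapped. Summed over the family, the medians of the 10 Frizzled receptors came to 72.7 RPKM in RGCs and 136 in non-RGCs, while those of the 19 ligands came to 23.1 and 23.2.

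The 10 Frizzled receptors each had a median of at least 1 RPKM in both fractions, against 7 of 19 ligands in RGCs and 5 in non-RGCs, and 3 of 8 antagonists in each fraction. At most 3 reads in any library were counted in RGCs for Wnt3a, Wnt6, Wnt8a and Dkk4, and in non-RGCs for Wnt1, Wnt2, Wnt3a, Wnt8a, Wnt8b and Dkk4. A difference in these genes would not have been detectable at this depth.

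Between the fractions of WT retinas, all RGC libraries lay above all non-RGC libraries for 5 members and below them for 17. The share of all genes separated in this way was not worked out, so the counts are not read as particular to the members. These levels were set side by side without a test, because the tables of the fractions were normalised separately. The 5 members higher in RGCs were the ligands Wnt3, Wnt4, Wnt8b and Wnt11 and the receptor Fzd1. Wnt3 was at 9.73, 8.50 and 7.36 RPKM in the WT RGC libraries A, B and C and at 1.90, 1.88 and 2.20 in the WT non-RGC libraries, a 4.29-fold ratio of the means. Wnt11 was at 2.41, 2.53 and 1.41 RPKM in WT RGCs and at 0.398, 0.550 and 0.261 in WT non-RGCs. The libraries of a group are lettered from the most to the fewest reads, and a letter does not tie a library of one group to a library of another.

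Wnt4, a ligand of signalling with and without β-catenin, was counted with 67, 65 and 48 reads in WT RGCs and with 4 reads in each WT non-RGC library. Wnt8b was counted with 30, 29 and 16 reads in WT RGCs and with 1, 0 and 1 reads in WT non-RGCs. The ligands therefore did not share one pattern: Wnt5a, Wnt5b, Wnt7a, Wnt7b, Wnt9b and Wnt10a were lower in every WT RGC library than in every WT non-RGC library, with WT RGC means between 0.35 times (Wnt10a) and 0.50 times (Wnt5a) those of WT non-RGCs. The 9 Frizzled receptors other than Fzd1 were all lower in WT RGCs, from 0.24 times for Fzd10 to 0.63 times for Fzd3. Fzd1, at 17.9, 15.4 and 12.9 RPKM in WT RGCs against 9.15, 9.40 and 8.33 in WT non-RGCs, was the exception. Sfrp2 and Dkk3 were also lower in WT RGCs (0.50 times and 0.71 times), while the ranges of the other 6 antagonists overlapped.

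**Figure D1:**
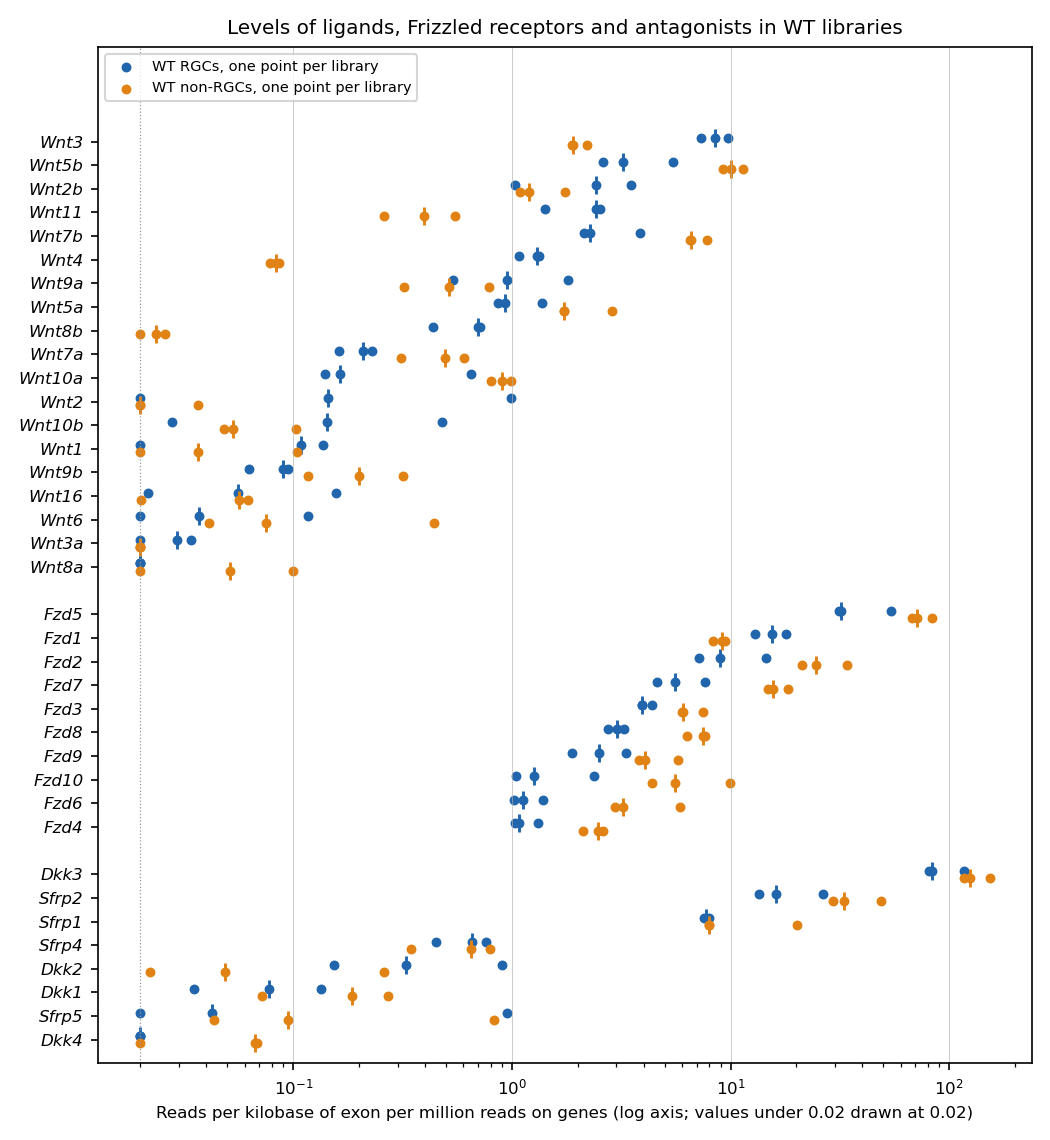
Levels of the 37 members in WT libraries, in RPKM on a log axis where values under 0.02 are drawn at 0.02, with one point per library and a vertical tick at the median of the 3 libraries of a fraction. Blue points (RGCs) lie to the right of orange points (non-RGCs) for Wnt3, Wnt4, Wnt8b, Wnt11 and Fzd1, and to their left for the other 9 Frizzled receptors; Dkk3 is highest in both fractions.

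Most member promoters that had a sequence also shared a feature that the choice by symbol did not use. RefSeq promoter sequences (GRCm38.p6) were matched by symbol for 25 of the 37 members, with 28 promoters in all; Dkk3, Dkk4, Fzd2, Fzd3, Fzd6, Fzd8, Sfrp1, Sfrp4, Wnt5a, Wnt7b, Wnt8a and Wnt10a had no entry. The 250 bases before the start held a median of 22 CpG dinucleotides in the members' promoters and of 6 in all 32851 promoters, and 25 of the 28 lay above the median of all promoters, as did 46.3% of all promoters. Promoters rich in CpG are the kind at which polycomb complexes, of which Ezh2 is the catalytic subunit, are known to bind, but histone marks were not measured in these libraries. The stretches before the annotated first exon of Fzd5 (chr1:64737752-64738000, minus strand, 31 CpG) and of Wnt4 (chr4:137277385-137277488, plus strand, 16 CpG) are shown as examples of a receptor and a ligand, 5′ to 3′ and with each CpG in capitals.
Fzd5: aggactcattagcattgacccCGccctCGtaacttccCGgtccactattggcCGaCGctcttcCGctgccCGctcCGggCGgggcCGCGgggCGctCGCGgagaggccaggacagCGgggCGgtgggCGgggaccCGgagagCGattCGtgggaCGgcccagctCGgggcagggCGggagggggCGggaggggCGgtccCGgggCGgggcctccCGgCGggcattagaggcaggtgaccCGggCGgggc
Wnt4: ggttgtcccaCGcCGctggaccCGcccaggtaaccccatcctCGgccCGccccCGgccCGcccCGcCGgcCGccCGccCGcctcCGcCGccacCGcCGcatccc
The letters CTTTGAT, the core bound by Tcf and Lef factors, were searched on both strands of the 300 bases around each start. They stood in 1 promoter of Wnt5b and in 1 of Wnt11, that is in 7.14% of the members' promoters against 3.73% of all promoters.

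Next, mKO and WT were compared within RGCs. A gene was tested when its mean was at least 10 normalised reads in either genotype, which held for 26 members (11 ligands, 10 Frizzled receptors and 5 antagonists). The ligands Wnt1, Wnt3a, Wnt6, Wnt8a, Wnt9b, Wnt10a, Wnt10b and Wnt16 and the antagonists Sfrp5, Dkk1 and Dkk4 did not pass this filter. Fzd3 and Sfrp1 were higher in mKO RGCs and Fzd2, Fzd8 and Dkk3 were lower, at an adjusted p under 0.05 (limma with Benjamini-Hochberg adjustment over 16085 genes). That is 7.69% of the tested members higher and 11.5% lower, against 16.3% and 21.2% of all genes tested (37.5% in either direction). All mKO libraries lay above all WT libraries for 5 of the 26 members, as for 24.8% of all genes tested, and below them for 6, as for 28.2%. Wnt7a, among the 5, passed the filter only through its mKO mean (11.9 normalised reads, 7.93 in WT), and the filter favoured that direction. Wnt2 passed only through its WT mean (10.8, against 6.29 in mKO). The members' median log2 change was -0.02, and that of all genes tested was 0.00 to 2 decimals.

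The count in RGCs changed with the libraries used. Without WT library A it stayed at 5 members, and without WT library B it was 4 (29.9% and 31.5% of all genes tested). Without WT library C, 11 members were called (51.0% of all genes tested). In place of 5 members, 1 was called without mKO library A, 1 without mKO library B and 2 without mKO library C, when between 23.5% and 25% of all genes tested were called. Fzd3 was called in all 6 of these fits. When library sizes were set by RPM instead of the authors' size factors, the log2 change of all genes moved up by a median of 0.12. The calls were then 3 members higher and 2 lower, with 37.8% of all genes tested called in either direction.

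The change of genes between mKO and WT also followed the GC content of their exons. In RGCs, the median log2 change of all genes went from 0.36 in the fifth of genes with the least GC to -0.45 in the fifth with the most, and in non-RGCs from 0.18 to -0.34. The tested members had a median GC content of 52.9% in RGCs, against 49.5% for all genes tested, and 20 of 26 lay above it. Both this trend and that with depth, as reads per exon base, were therefore taken out of each library. Sfrp1 was then the one member called in RGCs (higher, as were 1.98% of all genes tested, while 4.12% were lower and 6.1% either). None was called in non-RGCs by limma (0.821% of all genes higher, 0.89% lower and 1.71% either), where 3 members had an unadjusted p under 0.05. Values with these trends removed are given beside each member called.

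**Figure D2:**
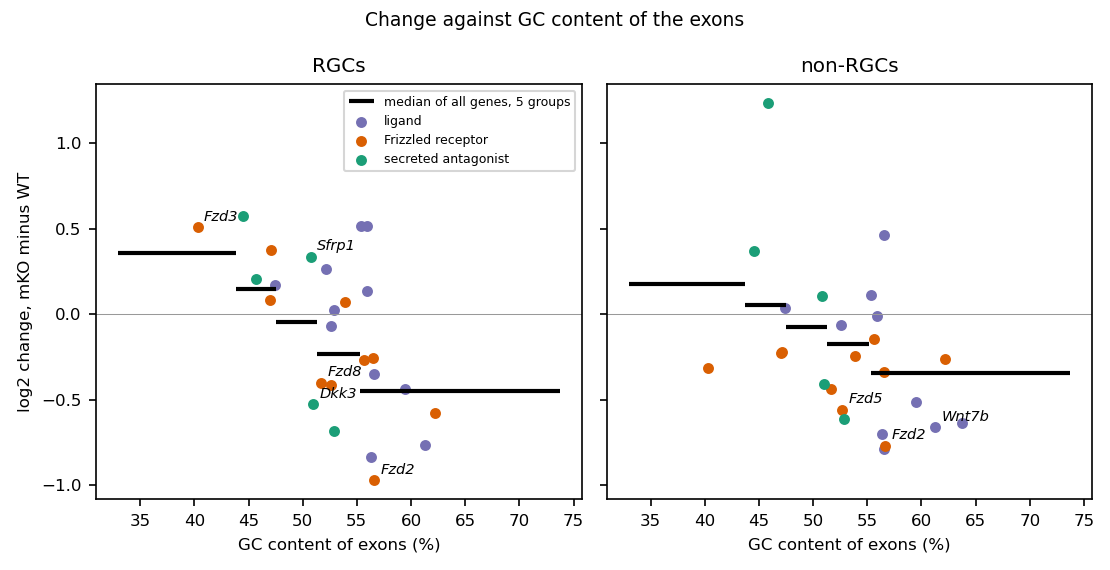
Log2 change (mKO minus WT) of each tested member against the GC content of its exons, in RGCs (left, 26 members) and non-RGCs (right, 25 members), with black bars at the median of all genes in 5 groups of GC content. Fzd3 lies at the low-GC end and Fzd2 towards the high-GC end, and the medians of all genes fall from left to right in both fractions.

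Frizzled receptors span the membrane and pass the Wnt signal on through Dishevelled, which binds a lysine-threonine and tryptophan motif just inside the membrane. The coding stretches around that motif are shown for 3 of the 4 Frizzled receptors called in either fraction, to compare their base composition (GRCm38, 60 bases, 5′ to 3′, motif codons in capitals). Fzd2 is on chromosome 11 (chr11:102606352-102606411, plus strand), Fzd3 on chromosome 14 (chr14:65212086-65212145, minus strand) and Fzd5 on chromosome 1 (chr1:64734990-64735049, minus strand), each stretch within one coding exon.
Fzd2: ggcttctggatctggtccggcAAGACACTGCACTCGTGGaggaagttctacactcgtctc
Fzd3: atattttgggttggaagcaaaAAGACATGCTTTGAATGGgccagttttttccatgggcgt
Fzd5: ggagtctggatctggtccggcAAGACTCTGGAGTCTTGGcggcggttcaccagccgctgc
The motif codons begin and end alike in the 3 receptors. The whole stretches, motif included, differ in composition: 25 of 60 bases are G or C in Fzd3, 34 in Fzd2 and 39 in Fzd5. Over the whole coding sequence the GC content was 46.3% in Fzd3, 63.1% in Fzd2 and 62.8% in Fzd5. Over all exons, the measure used for the trend, it was 40.3% in Fzd3, 56.6% in Fzd2 and 52.7% in Fzd5.

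Fzd3, the receptor known for axon guidance (chromosome 14, 65192449 to 65262463, minus strand), had 915, 901 and 976 normalised reads in the mKO RGC libraries A, B and C. It had 631, 710.0 and 622 in the WT RGC libraries. Each mKO library lay above each WT library, and the log2 change was 0.51 (SE 0.074, limma adjusted p = 0.0025). Its exons, with 40.3% GC the lowest of the tested members, belong to the GC range in which genes were higher in mKO, and with the GC and depth trends removed the log2 change was 0.02 (limma adjusted p = 0.889).

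Fzd2 (chromosome 11, 102604396 to 102608058, plus strand) had 231, 246 and 208 normalised reads in mKO RGCs and 327, 414 and 662 in WT RGCs. The mKO libraries were close to each other and below every WT library, of which library C was the highest. Its log2 change of -0.97 (SE 0.242, limma adjusted p = 0.0190) was the largest fall among the tested members, and it was -0.66 with both trends removed (limma adjusted p = 0.142). Without WT library C it was -0.69 (limma adjusted p = 0.0026).

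Fzd8 had 168, 188 and 155 normalised reads in mKO RGCs and 205, 229 and 240.4 in WT RGCs, with no overlap. The log2 change was -0.40 (SE 0.124, limma adjusted p = 0.0409). With both trends removed the log2 change stayed at -0.40, with an adjusted p of 0.107 (limma); the call was also absent when any one library other than WT library C was left out. The change was -0.28 with RPM, -0.32 with the upper quartile and -0.40 with no filter on low genes, none of them called (limma adjusted p = 0.134, 0.0750 and 0.0534).

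Fzd5, the most abundant Frizzled receptor, had 2467, 2453 and 2459 normalised reads in mKO RGCs and 2774, 2745 and 4619 in WT RGCs. The mKO libraries lay below all WT libraries, but WT library C stood far above the other two, and the log2 change of -0.41 (SE 0.191, limma adjusted p = 0.130) did not pass the threshold. Without WT library C the change was -0.17 (limma adjusted p = 0.0069). Of the exon bases of Fzd5, 17.8% are shared with a gene on the opposite strand, and reads of the 2 genes cannot be told apart where the counting did not use strand, which is not given in the sources used here.

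The other 6 Frizzled receptors did not pass the threshold in RGCs. Fzd1 had 675, 631 and 694 normalised reads in mKO RGCs and 939.6, 821 and 669 in WT RGCs, overlapping at the lowest WT library (log2 change -0.27, SE 0.124, limma adjusted p = 0.131). Fzd7 had 365, 349 and 326 against 262, 318 and 431, with the mKO libraries inside the WT range (0.07, SE 0.177, limma adjusted p = 0.777). For Fzd4, Fzd6, Fzd9 and Fzd10 the groups overlapped, with log2 changes of 0.08, 0.38, -0.58 and -0.25.

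None of the 11 ligands tested passed the threshold in RGCs, with log2 changes from -0.83 (Wnt9a) to 0.52 (Wnt4 and Wnt7a) and an unadjusted p under 0.05 for Wnt4 and Wnt7b; voom called none either, but Wnt4 was called higher with RPM and with the upper quartile. Wnt3, the most abundant ligand of RGCs, had 320.2, 309.8 and 302 normalised reads in mKO RGCs and 374, 331 and 280.1 in WT RGCs. The mKO libraries lay within the WT range, and the 95% interval of the log2 change ran from -0.35 to 0.21.

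Wnt4 (chromosome 4, 137277489 to 137299726, plus strand), by contrast, had 95.1, 77.5 and 108 normalised reads in mKO RGCs and 67.9, 70.6 and 56.0 in WT RGCs. Each mKO library was above each WT library, and the log2 change was 0.52 (SE 0.191, limma adjusted p = 0.0719). The change was 0.64 with RPM and 0.59 with the upper quartile, both called (limma adjusted p = 0.0341 and 0.0476). The value was 0.87 with the GC trend removed (limma adjusted p = 0.0342) and 0.69 with both trends removed (limma adjusted p = 0.0761). Its exons hold 55.9% GC, in the range in which genes were on the whole lower in mKO.

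Wnt7b, a ligand of progenitors and neurons that signals through β-catenin, had 111, 112 and 69.6 normalised reads in mKO RGCs and 139, 132 and 233 in WT RGCs. The groups did not overlap (log2 change -0.76, SE 0.283, limma adjusted p = 0.0727). Wnt7a, at 12.2, 9.22 and 14.1 against 9.12, 6.51 and 8.17, was higher in every mKO library (0.52, SE 0.306, limma adjusted p = 0.225). It passed the filter only through its mKO mean, so neither its separation nor its change is read as a result. Wnt5b had 87.3, 93.1 and 81.9 against 86.2, 109 and 179, and Wnt2b had 123, 101 and 136 against 127, 186 and 53.7. Wnt5a, a ligand of the polarity branch, had 138, 97.7 and 111 against 91.2, 85.8 and 133. In each of Wnt5b, Wnt2b and Wnt5a the WT libraries spread more widely than the mKO libraries, and the groups overlapped.

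Among the antagonists, Sfrp1 and Dkk3 changed in opposite directions in RGCs. Sfrp1 (chromosome 8, 23411502 to 23449632, plus strand), which binds Wnt proteins outside the cell, had 546, 569.8 and 497 normalised reads in mKO RGCs and 423, 419 and 433 in WT RGCs. The WT libraries were within a narrow range and all mKO libraries were above it, with a log2 change of 0.34 (SE 0.077, limma adjusted p = 0.0140). It was 0.46 with the GC trend removed (limma adjusted p = 0.0097) and 0.39 with both trends removed (limma adjusted p = 0.0284). Without mKO library A or B, its adjusted p was 0.0637 and 0.0629 (limma).

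Dkk3 (chromosome 7, 112116017 to 112159057, minus strand) had 2608, 2819 and 2657 normalised reads in mKO RGCs and 3406, 3548 and 4843 in WT RGCs. The highest mKO library lay below the lowest WT library, and the log2 change was -0.53 (SE 0.131, limma adjusted p = 0.0185). With the GC trend removed it was -0.39 (limma adjusted p = 0.0814), and with both trends removed -0.08 (limma adjusted p = 0.745).

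Sfrp2, an antagonist of retinal progenitors, had 325, 309.8 and 271 normalised reads in mKO RGCs and 364, 439.7 and 705 in WT RGCs. No mKO library reached a WT library, but the log2 change of -0.68 (SE 0.231) had an adjusted p of 0.0550 (limma). Of its exon bases, 16.1% are shared with a gene on the opposite strand. Sfrp4 had 47.1, 46.1 and 50.8 normalised reads in mKO RGCs and 34.5, 40.2 and 23.3 in WT RGCs, without overlap, and did not pass the threshold (log2 change 0.57, SE 0.248, limma adjusted p = 0.110), nor did Dkk2 (0.20), whose groups overlapped.

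**Figure D3:**
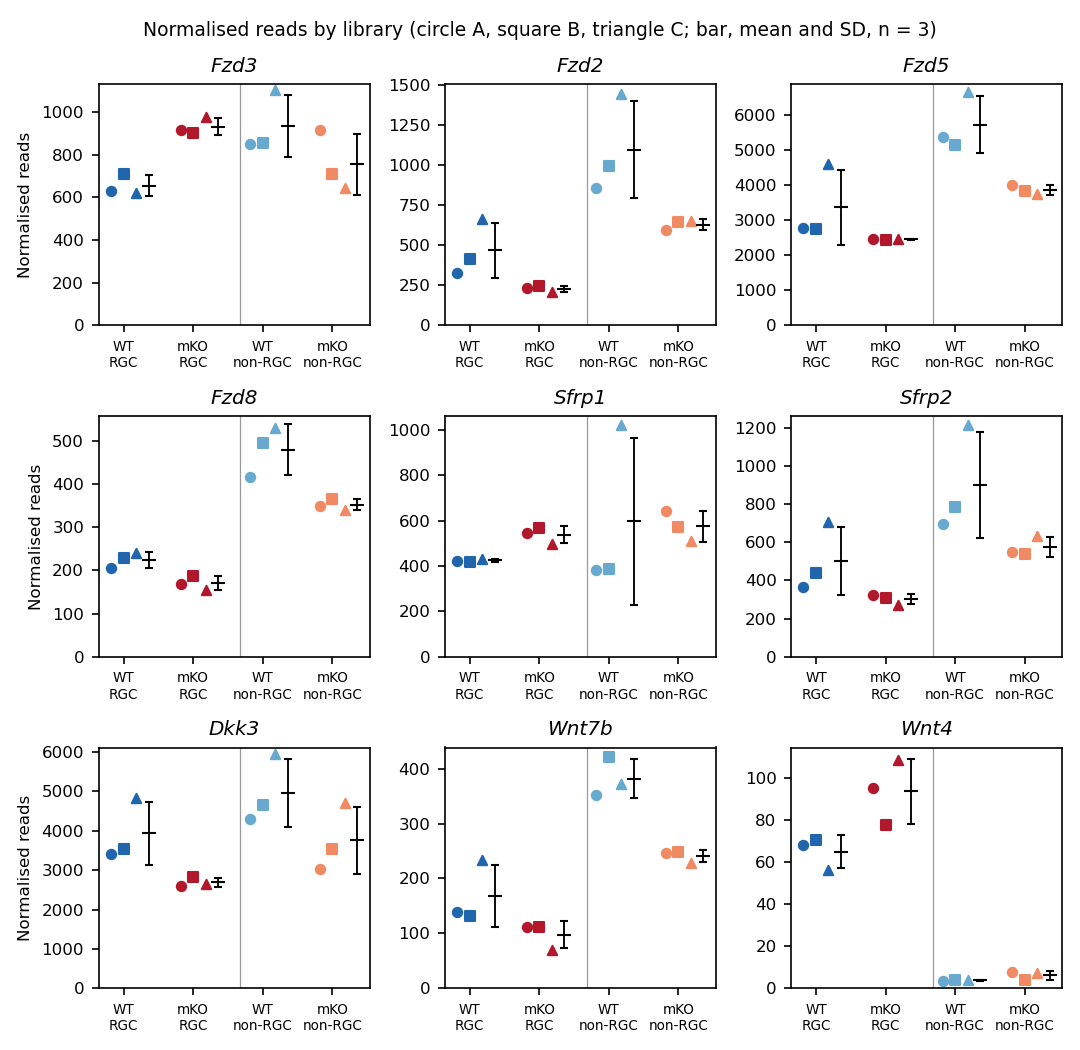
Normalised reads of 9 members in each library of the 4 groups (circles, squares and triangles for libraries A, B and C, lettered from most to fewest reads within a group), with the mean and SD of the 3 libraries as black bars. In RGCs, Fzd3 and Sfrp1 are higher and Fzd2, Fzd8 and Dkk3 lower in every mKO library than in every WT library; WT library C stands above the other 2 for Fzd2, Fzd5, Sfrp2, Dkk3 and Wnt7b. The tables of the fractions were normalised separately.

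WT RGC library C was the highest of the WT RGC libraries for 13 of the 26 members tested (50%), against 46.3% of all genes tested. The 10 progenitor markers, one of which is Sfrp2, summed to 2005 RPM in this library and to 1196 and 1249 in WT libraries A and B, with 1224 to 1336 in mKO RGCs. Photoreceptor markers summed to 776 against 528 and 529.6 in WT libraries A and B. The part of these cells in the values of Fzd2, Fzd5, Sfrp2, Dkk3 and Wnt7b was not tested. Without library C the log2 changes were -0.69 for Fzd2, -0.17 for Fzd5, -0.41 for Sfrp2 and -0.37 for Dkk3 (limma adjusted p = 0.0026, 0.0069, 0.0180 and 0.0005), and -0.50 for Wnt7b, which was not called (limma adjusted p = 0.0971). In that fit Wnt9a, Wnt11 and Fzd1 were also called lower and Fzd6 higher.

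WT RGC library B was the highest of the WT RGC libraries for 10 of the 26 members tested (38.5%), against 27.2% of all genes tested. Among them were Wnt2b (125, 171 and 46 reads in A, B and C) and Wnt9a (39, 70 and 19). Members with few reads, not all of them tested, were also highest in library B. Wnt2 was counted with 26 reads in WT RGC library B and with 4 and 0 in libraries A and C, Wnt10b with 19 against 6 and 1, Sfrp5 with 21 against 1 and 0, and Dkk2 with 39 against 15 and 6. The 8 mesenchyme markers summed to 1257 RPM in library B, to 401 in A and to 20.6 in C. In mKO RGCs the sum was highest in library A, at 613 against 55.1 and 186 in B and C. Wnt2 (11, 8 and 2 reads), Wnt10b (7, 4 and 4) and Dkk2 (34, 15 and 19) were highest there too. Sfrp5 (4, 4 and 2 reads) was not. In WT non-RGCs the mesenchyme sum was 614 in library B against 71.8 and 15.6 in A and C. Sfrp5 was counted with 18 reads in library B against 1 and 2, Dkk2 with 11 against 1 and 2, and Wnt10b with 4 against 2 and 2. Wnt2, with 1, 0 and 0 reads in A, B and C, was not highest in B. In mKO non-RGCs the mesenchyme sum was 56.2, 70.4 and 29.1 RPM in A, B and C. Sfrp5 was counted there with 4, 5 and 0 reads, Dkk2 with 6, 7 and 0, Wnt10b with 3, 2 and 1, and Wnt2 with 0 in each. Whether cells from outside the retina contributed these reads was not tested.

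The same comparison in non-RGCs covered 25 members (10 ligands, 10 Frizzled receptors and 5 antagonists). Wnt1, Wnt2, Wnt3a, Wnt4, Wnt6, Wnt8a, Wnt8b, Wnt10b, Wnt16, Sfrp5, Dkk2 and Dkk4 did not pass the filter. Fzd5, Wnt7b and Fzd2 were lower in mKO non-RGCs and no member was higher (limma, adjusted over 15326 genes; voom called the same numbers, and Dkk1 was higher at an unadjusted p under 0.05). That is 12% of the tested members lower, against 6.43% of all genes tested, and 0 higher, against 4.18% (10.6% of all genes in either direction). All mKO libraries lay below all WT libraries for 7 of the 25 members, as for 19.2% of all genes tested, and above them for 1, Dkk1, as for 17.5%. Dkk1 passed the filter only through its mKO mean (12.1 normalised reads, 4.79 in WT), and the filter favoured that direction. Neither its separation nor its unadjusted p is therefore read as a result. Wnt9b passed only through its WT mean (10.8, against 5.47 in mKO). None was called by limma without WT library B or without mKO library B (2.48% and 0.907% of all genes tested). In each of these fits 5 members had an unadjusted p under 0.05. Without mKO library A, 1 member was called (7.73% of all genes tested). With RPM, which moved the log2 change of all genes up by a median of 0.17, Fzd5 alone was called (11.6% of all genes tested).

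Fzd5 had 4025, 3845 and 3752 normalised reads in mKO non-RGCs and 5386, 5165 and 6667 in WT non-RGCs. The libraries of the genotypes were well apart, with a log2 change of -0.56 (SE 0.118, limma adjusted p = 0.0216). It was -0.41 with the GC trend removed (limma adjusted p = 0.0924) and -0.28 with both trends removed (limma adjusted p = 0.292).

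Fzd2 had 592, 643 and 652 normalised reads in mKO non-RGCs and 857, 993 and 1441 in WT non-RGCs. As in RGCs, every mKO library was below every WT library and WT library C was the highest (log2 change -0.77, SE 0.187, limma adjusted p = 0.0327). The change was -0.48 with both trends removed (limma adjusted p = 0.145).

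Wnt7b (chromosome 15, 85535437 to 85582473, minus strand) had 247, 248 and 227 normalised reads in mKO non-RGCs and 353, 421 and 371 in WT non-RGCs. No WT library stood apart here, and the log2 change was -0.66 (SE 0.157, limma adjusted p = 0.0306). Its exons hold 61.2% GC, and the change was -0.17 with the GC trend removed (limma adjusted p = 0.551) and -0.32 with both trends removed (limma adjusted p = 0.226). Of its exon bases, 6.61% are shared with a gene on the opposite strand.

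All 10 Frizzled receptors had log2 changes below 0 in non-RGCs, from -0.77 to -0.14, as did 8032 of all 15326 genes tested. Of the 10, 8 did not pass the threshold. With RPM 9 of 10 were below 0, Fzd1 then being at 0.03, and with both trends removed 8 of 10. WT library C was the highest WT library for all of these receptors except Fzd1 and Fzd4, so the signs are not separate results. Fzd8 had 349.8, 365 and 340.3 normalised reads in mKO and 415, 495 and 529 in WT non-RGCs (log2 change -0.44, SE 0.153, limma adjusted p = 0.0913), with no overlap. Fzd3 had 915, 708 and 641 against 849.9, 853 and 1103, with overlap (-0.31, SE 0.172, limma adjusted p = 0.248). Fzd1 had 412, 387 and 346 against 421, 436 and 405, and Fzd7 had 751, 720.3 and 624 against 780.4, 746 and 962. Both overlapped between the genotypes.

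The antagonists did not pass the threshold in non-RGCs. Sfrp1 had 643, 574 and 508 normalised reads in mKO non-RGCs and 383, 385 and 1022 in WT non-RGCs, so that 1 WT library was far above, and the other two below, all mKO libraries. Its log2 change was 0.10 (SE 0.333, limma adjusted p = 0.860), and 0.57 without WT library C (limma adjusted p = 0.0468). Sfrp2 had 548, 537 and 633 against 697, 785 and 1214, with no overlap (-0.61, SE 0.203, limma adjusted p = 0.0804). Dkk1, an inhibitor of the co-receptors, was counted with 11, 10 and 13 reads in mKO and 8, 2 and 5 in WT non-RGCs (1.23, SE 0.535, limma adjusted p = 0.156). Dkk3 had 3039, 3545 and 4702 against 4302, 4643 and 5948, with overlap (-0.41, SE 0.175, limma adjusted p = 0.15). WT non-RGC library C also held the highest sum of progenitor markers of the WT non-RGC libraries, 2970 RPM against 2533 and 2520, and was the highest WT library for 15 of the 25 members tested (60%, against 44.8% of all genes tested).

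Of the other ligands in non-RGCs, Wnt5b had 231, 188 and 220.3 normalised reads in mKO and 268, 296 and 351 in WT (log2 change -0.51, SE 0.180, limma adjusted p = 0.0934), with no overlap. Wnt5a had 232, 179 and 151 against 149, 150 and 259.6, Wnt3 had 56.3, 63.3 and 79.1 against 64.1, 63.9 and 78.2, and Wnt2b had 69.4, 62.3 and 53.7 against 55.0, 81.3 and 53.2. Their groups overlapped. The 5 remaining ligands tested had log2 changes between -0.79 (Wnt9b) and 0.46 (Wnt11), of which Wnt10a was lower in every mKO library than in every WT library (-0.64, SE 0.316, limma adjusted p = 0.207). Over all 25 members tested, the median log2 change was -0.26, against -0.03 for all genes tested.

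**Figure D4:**
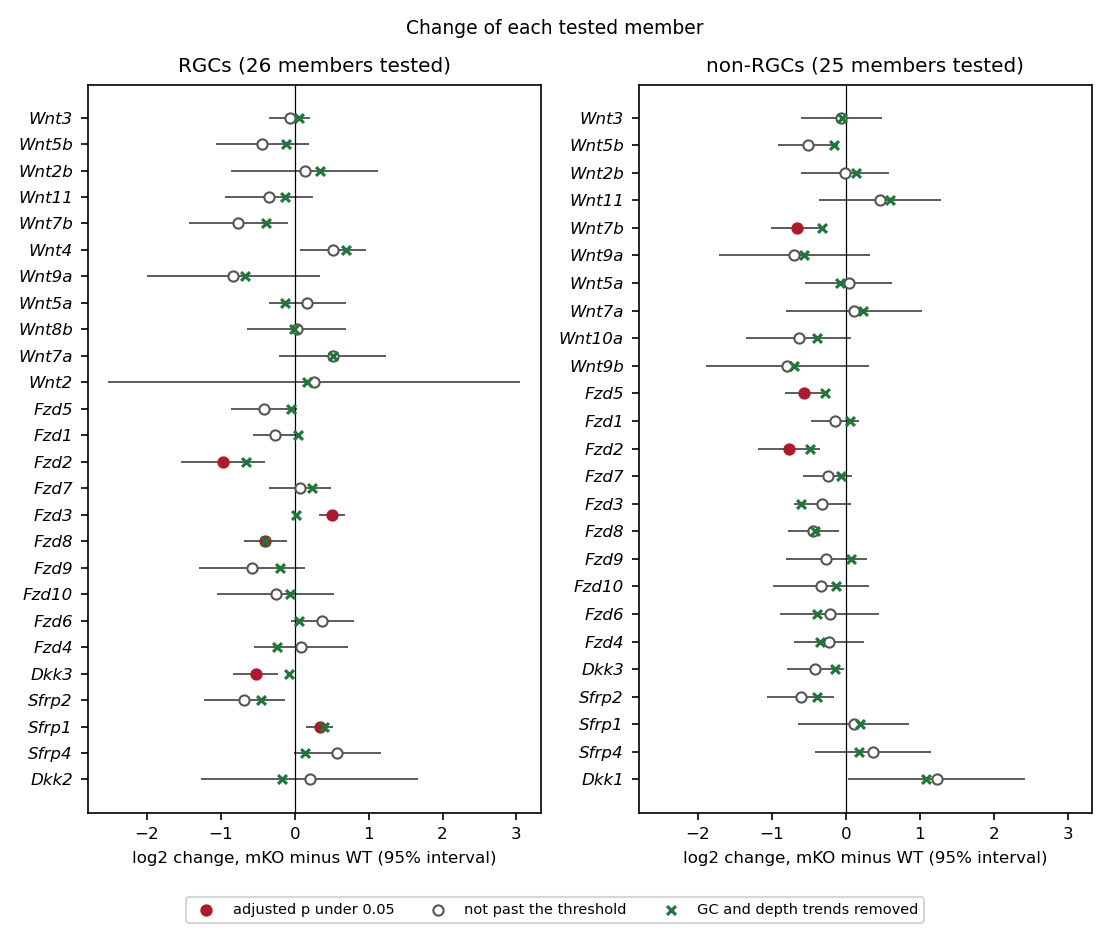
Log2 change (mKO minus WT) of each tested member in RGCs (left) and non-RGCs (right), with 95% intervals from limma; filled red circles have an adjusted p under 0.05, and green crosses give the change with the GC and depth trends removed. In RGCs the cross of Fzd3 lies near 0 and that of Sfrp1 stays with its circle. In non-RGCs all 10 Frizzled circles lie left of 0, as did the changes of 8032 of all 15326 genes tested.

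Whether the effect of genotype differed between the fractions was then tested for the 22 members tested in both tables. No member passed the threshold (limma test of the difference, adjusted over 14894 genes, of which 0.107% passed), and 1 member, Fzd3, had an unadjusted p under 0.05. The difference for Fzd3 was 0.82 on the log2 scale (SE 0.197, limma adjusted p = 0.235), with mKO above WT in RGCs and the groups overlapping in non-RGCs. Without mKO non-RGC library A it was 0.97 and passed (limma adjusted p = 0.0232), when 1.75% of all genes passed. With the GC trend removed it was 0.66 and with both trends removed 0.62 (limma adjusted p = 0.365 and 0.325). For Fzd2 the difference was -0.20 (SE 0.325), for Fzd5 0.14 (SE 0.233) and for Wnt7b -0.10 (SE 0.327), so that a call in one fraction and not in the other was not shown to be a difference between the fractions.

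The remaining genes of the pathway were counted in 7 lists of 72 genes. In RGCs, 4 of 66 genes tested were higher in mKO and 21 lower, when 16.3% and 21.2% of all genes tested were. In non-RGCs 3 of 64 were higher and 9 lower, when 4.18% and 6.43% of all genes tested were. With both trends removed, Pygo1 was called higher and Btrc, which marks β-catenin for degradation, lower in RGCs (-0.31, limma adjusted p = 0.0493), and Sp5 higher in non-RGCs. The median log2 change of these genes was -0.17 in RGCs and -0.25 in non-RGCs.

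Of all genes tested in RGCs, 21.2% were lower in mKO and 16.3% higher. Of the 12 RGC markers, outside the 7 lists, 10 were lower there. Cytoplasmic transduction, the step after the receptor, had 9 of 13 genes lower and none higher in RGCs, more lower genes than any other of the 7 lists. They were Dvl1 (-0.56), Dvl2 (-0.62) and Dvl3 (-0.62), the Dishevelled proteins that bind the Frizzled motif printed above; Axin1 (-0.27), Apc2 (-0.52), Gsk3a (-0.57), Csnk1d (-0.40) and Csnk1e (-0.31), of the complex that degrades β-catenin or its kinases; and Ctnnb1 (-0.60), which encodes β-catenin. In non-RGCs Dvl2 (-0.47), Dvl3 (-1.03) and Apc2 (-0.81) were lower. With both trends removed, the median of the list in RGCs went from -0.40 to -0.03, and the genes named here were not called. Ctnnb1 had 3113, 3215 and 3282 normalised reads in mKO RGCs and 4575, 4728 and 5268 in WT RGCs, with no overlap, and a change of -0.18 with both trends removed (limma adjusted p = 0.117).

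Of the co-receptors and receptor regulators, Lrp5 and Ptk7 were lower and Tspan12 higher in mKO in both fractions. No gene of this list was called in either fraction with the GC trend removed or with both trends removed. Lrp5, the co-receptor, fell by 0.73 on the log2 scale in RGCs (SE 0.144, limma adjusted p = 0.0079) and by 0.80 in non-RGCs (SE 0.127, limma adjusted p = 0.0092), and Ptk7, a co-receptor of the polarity branch, by 0.44 and 0.61. Tspan12, which acts with Fzd4 in vessel growth, had 315, 308 and 247 normalised reads in mKO non-RGCs and 154, 182 and 153 in WT non-RGCs, and rose by 0.82 there and by 0.38 in RGCs (limma adjusted p = 0.0249 and 0.0153).

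In the list of ligand secretion, Porcn, the enzyme that adds the lipid to Wnt proteins, fell by 0.39 in RGCs (limma adjusted p = 0.0062). Wls, which carries Wnt proteins to the cell surface, had 84.8, 73.8 and 57.9 normalised reads in mKO non-RGCs and 24.4, 19.4 and 6.26 in WT non-RGCs. All mKO libraries were above all WT libraries there (log2 change 2.22, SE 0.459, limma adjusted p = 0.0209), and in RGCs, where it had 133, 52.6 and 38.6 against 38.5, 147 and 46.7, they overlapped. The pigment epithelium markers given above were also higher in mKO non-RGCs; their part in the change of Wls, which was 1.93 with both trends removed (limma adjusted p = 0.0641), was not tested. Wif1, another secreted antagonist, rose by 1.02 in RGCs (SE 0.335, limma adjusted p = 0.0493).

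Of the nuclear effectors, Bcl9 (-0.27), Bcl9l (-0.53), Pygo2 (-0.46), Tle1 (-0.27) and Tle3 (-0.52) were lower and Pygo1 (0.61) higher in mKO RGCs, and Tcf7l1 (-0.65), Bcl9 (-0.62), Bcl9l (-0.90) and Tle3 (-0.62) were lower in mKO non-RGCs. Pygo1, which binds β-catenin through Bcl9, had 2481, 2553 and 2619.8 normalised reads in mKO RGCs and 1845, 1787 and 1409 in WT RGCs. The groups were far apart, and it was the gene of these lists still called higher in RGCs with both trends removed (0.54, limma adjusted p = 0.0365). Lef1 had 58.5, 47.9 and 60.2 against 56.8, 71.6 and 94.5 in RGCs and did not pass the threshold in either fraction (limma adjusted p = 0.225 and 0.909).

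Target genes of β-catenin did not move together. Axin2, the widely used target, had 696, 652 and 708 normalised reads in mKO RGCs and 780.5, 880.4 and 826 in WT RGCs, a log2 change of -0.27 (SE 0.070, limma adjusted p = 0.0213) that was 0.05 with both trends removed (limma adjusted p = 0.774). In non-RGCs Axin2 had 615, 592 and 563 against 713, 773 and 586, with overlap. Nkd1 (-0.41) and Ccnd1 (-0.67), the latter also a progenitor marker, were lower in mKO RGCs.

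Sp5, a target that acts back on the pathway, went the other way. It had 88.6, 132 and 106 normalised reads in mKO non-RGCs and 56.8, 30 and 29.2 in WT non-RGCs. The genotypes did not overlap (log2 change 1.52, SE 0.317, limma adjusted p = 0.0211), and the change was 1.83 with both trends removed (limma adjusted p = 0.0288). In RGCs it had 26.2, 14.8 and 30.1 against 13.2, 9.77 and 1.17, also without overlap, and did not pass the threshold (limma adjusted p = 0.0922).

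Of the polarity genes, Celsr2 (-0.40) was lower and Invs (0.37) higher in mKO RGCs (limma adjusted p = 0.0048 and 0.0184). Neither was called with the GC trend removed or with both trends removed.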

How the data were processed

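Retinal RNA-seq libraries (3 per genotype and fraction) were made, as the study's methods and labels state, from poly-A RNA with single-end reads. The authors aligned them to mm10 with STAR 2.3.1z4, counted reads per gene with featureCounts and normalised and tested them with DESeq. The deposited signal values are counts divided by a size factor and averaged over the 3 libraries of a group by the authors. The deposited ratio, log2 and p-value columns hold the authors' own comparison and were not used. Per-library reads were worked out from the long decimals of the means: 1 whole-number combination was found for 100% of genes with reads in each group, and for none of 1000 altered values tried per group. Recovered libraries carry no replicate number.

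Reads divided by size factors were analysed with limma 3.58.1 (R 4.3.3, with trend, two-sided) as log2(value + 1), in place of a test for deposited counts, for genes averaging 10 or more in either group. On this scale the change of low genes is understated. The pseudocount, filter, scaling (authors' size factors, RPM or upper quartile), voom in place of limma's trend, the trends with GC content and depth per exon base (exons from GENCODE M21) and the libraries left out were alternatives. With 3 against 3, an exact permutation test cannot go below a p of 0.1, so none was run. Genes past the threshold and the 3 most abundant members of each role are given by library, as are Axin2 and Lef1. The members and lists were chosen with earlier results of these data known. Sequences were read from RefSeq promoters and GENCODE transcripts on GRCm38 (mm10). The script was tested on simulated data. Python 3.11.15 was used.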

Additional observations from a re-analysis of the deposited data

How the results depend on the processing

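The 5 calls among members in RGCs became 1 with the GC and depth trends removed (6.1% of all genes tested) and 2 with the GC trend removed (13.9%). They ranged from 1 to 11 when 1 library was left out (23.5% to 51.0%). The 3 calls in non-RGCs became 0 with both trends removed (1.71%) and 0 with the GC trend removed (1.44%). In these fits 3 and 4 members had an unadjusted p under 0.05 (limma). With RPM 1 was called (11.6%), and the count ranged from 0 to 4 when 1 library was left out (0.907% to 10.6%). No member differed between the fractions by limma with all libraries (0 called, 1 at an unadjusted p under 0.05). From 0 to 1 did when 1 library was left out (0.047% to 1.75% of all genes tested). The calls among the other pathway genes went from 25 to 2 in RGCs and from 12 to 1 in non-RGCs with both trends removed. The causes were not tested. The count of members with all WT RGC libraries below all WT non-RGC libraries was 17, and 15 with the authors' size factors; the count above them was 5 both ways.

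Signs that changed belonged to members that did not pass the threshold. Among members given by library, with both trends removed, the log2 change in RGCs was 0.059 for Wnt3, -0.13 for Wnt5a and 0.050 for Fzd1, and in non-RGCs 0.14 for Wnt2b, -0.071 for Wnt5a and 0.061 for Fzd1. With the GC trend removed it was 0.14 for Wnt3, 0.067 for Wnt5b and 0.077 for Fzd1 in RGCs, and 0.25 for Wnt2b, 0.086 for Wnt3 and 0.11 for Fzd1 in non-RGCs. With RPM it was 0.052 for Wnt3 in RGCs, and 0.16 for Wnt2b, 0.11 for Wnt3 and 0.027 for Fzd1 in non-RGCs; with the upper quartile it was 0.0088 for Wnt3 in RGCs, and 0.11 for Wnt2b and 0.065 for Wnt3 in non-RGCs; with voom it was 0.0079 for Wnt2b in non-RGCs. Among the other members, with both trends removed the change was -0.24 for Fzd4, -0.17 for Dkk2 and -0.0055 for Wnt8b in RGCs and 0.065 for Fzd9 in non-RGCs, and with the GC trend removed 0.049 for Fzd9, 0.13 for Fzd10 and 0.034 for Wnt11 in RGCs and 0.27 for Fzd9 in non-RGCs. With one library left out, signs changed within the ranges -0.36 to 0.52 for Wnt2b, -0.18 to 0.028 for Wnt3 and -0.096 to 0.26 for Fzd7 in RGCs, and -0.12 to 0.18 for Wnt2b, -0.19 to 0.048 for Wnt3, -0.13 to 0.30 for Wnt5a and -0.13 to 0.57 for Sfrp1 in non-RGCs.

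Among all genes called in RGCs, 43.5% were higher in mKO with the authors' size factors, 63.2% with RPM and 55.5% with the upper quartile, and in non-RGCs 39.4%, 74.9% and 65.0%. The upper quartile moved the median of all genes by 0.13 in non-RGCs; the members' median minus that of all genes was -0.24 there with the authors' size factors, -0.085 once the GC trend was taken out and -0.17 once both trends were. No paired analysis was possible because the recovered libraries carry no replicate number. Members with at most 3 reads per library are limited by depth.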
